A study of Mus musculus with 6 samples.

Results

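The secreted Wnt inhibitor genes examined here were the rows of the deposited count table named Wif1, Notum, Dkk1, Dkk2, Dkk3, Dkk4, Sfrp1, Sfrp2, Sfrp4 and Frzb, 10 of its 58116 rows. They were chosen by name, with earlier results of these data known, and all 10 were found. Poly(A) RNA was sequenced from the salivary gland primordia of wild-type mice on embryonic day 13.5, at a stage when a branching epithelium grows into a condensed mesenchyme. Treated primordia had received 300 ng/ml of BMP-2, a bone morphogenetic protein ligand, and control primordia 0 ng/ml, with 3 libraries in each group. The labels name neither the length of exposure nor separate litters or cultures, so each p-value reflects only how much the libraries vary, and that variation may be technical.

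Wnt proteins are lipid-modified ligands that bind frizzled receptors with the co-receptors LRP5 and LRP6, and the canonical branch stabilises beta-catenin, which acts with TCF/LEF factors on target genes. Cells also secrete proteins that dampen this signal. Wif1 and the secreted frizzled-related proteins bind Wnt ligands outside the cell, Notum is an enzyme that removes the lipid from them, and Dickkopf proteins of the Dkk1 type bind the LRP co-receptors. In the mouse salivary gland, Wnt signalling is known for roles in both mesenchyme and duct epithelium during branching.

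The BMP-2 libraries, replicates 1 and 2 and a further one without a number, held 32473558, 23970044 and 23331703 counts, against 21150072, 19724383 and 26269855 in control replicates 1, 2 and 3. Values of a group's libraries are given in these orders. The column of the unnumbered library matched no sample description and was placed in the BMP-2 group by the first letter of its name. The called members and Id1, Id3, Smad6, Wnt5a and Rspo2 are therefore also reported without it. Other called genes are given with it only. The edgeR fit without it called 29 genes, against 155 with it. All 11 gland epithelium markers and all 11 mesenchyme markers of the lists used here had counts in every library. The ligand's usual targets Id1, Id3 and Smad6 rose by 1.84, 1.77 and 1.30 on the log2 scale (adjusted p = 0.0245, 0.0298 and 0.0420, edgeR quasi-likelihood test). Id2 and Smad7 had changes of 0.62 and 0.68 and were not called by edgeR (adjusted p = 0.193 and 0.183). DESeq2 called all of these genes higher, Id2 and Smad7 included. Without the unnumbered library Id1, Id3 and Smad6 kept log2 changes of 1.78, 1.75 and 1.22 but were not called (adjusted p = 0.0881, 0.0983 and 0.142, edgeR).

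Of the 10 members, 8 had enough counts to be tested. Wif1, Notum and Dkk3 rose with BMP-2 and none fell (Benjamini-Hochberg adjusted p below 0.05 over 17006 genes, edgeR). Over all tested genes 0.811% were called higher and 0.1% lower. In bulk RNA of whole primordia, more cells of a type and more RNA per cell cannot be told apart. The remaining 5 tested members, Dkk2, Sfrp1, Sfrp2, Sfrp4 and Frzb, were not called. Dkk1 and Dkk4 had too few counts for the test. The median log2 change of the 8 tested members was 0.80, with 5 positive and 3 negative, against a median of -0.01 over all tested genes, of which 48.0% were positive. BMP-2 and control libraries did not overlap for Wif1, Notum, Dkk3 and Sfrp2, all higher with BMP-2, and 8.76% of all tested genes were separated in that direction. None of the 8 was separated in the lower direction, against 6.73% of all tested genes. Because the members were chosen with earlier results known, these counts beside the shares are no test of the family.

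**Figure D1:**
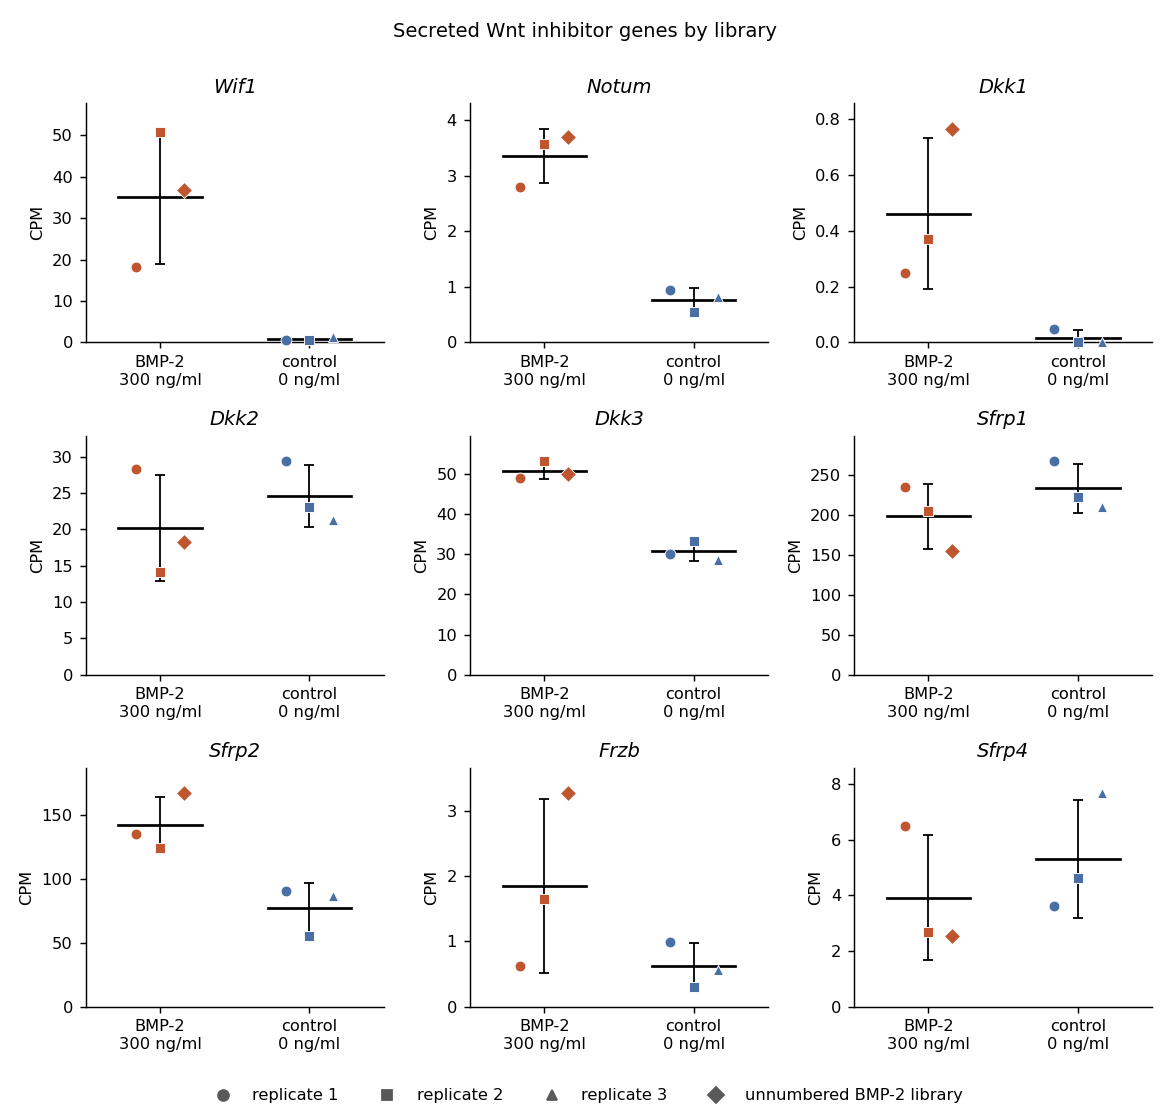
Normalised read counts (CPM, linear axes from 0) of 9 members in the 3 BMP-2 libraries and the 3 control libraries; symbols mark the replicate, the horizontal line is the mean and the error bar the SD. Wif1, Notum, Dkk1, Dkk3 and Sfrp2 are separated between the groups, and Dkk2, Sfrp1, Frzb and Sfrp4 overlap; Dkk4, with 0 counts in every library, is not drawn.

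Promoter sequences from RefSeq (GRCm38.p6) were matched by symbol for 5 members, Wif1, Dkk1, Dkk2, Sfrp2 and Frzb. A pair is shown to set the member with the largest rise beside one whose groups overlapped: the 250 bases before the RefSeq start of Wif1, at chr10:121033754-121034003 on the plus strand, and of Dkk2, at chr3:132085042-132085291 on the plus strand. Capitals mark GTCT or its reverse complement, the short motif that SMAD proteins bind.
Wif1: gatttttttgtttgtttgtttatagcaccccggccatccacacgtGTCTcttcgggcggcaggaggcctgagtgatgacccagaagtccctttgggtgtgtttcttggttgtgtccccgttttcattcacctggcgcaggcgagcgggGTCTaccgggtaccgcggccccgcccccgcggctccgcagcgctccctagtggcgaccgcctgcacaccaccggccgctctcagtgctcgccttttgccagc
Dkk2: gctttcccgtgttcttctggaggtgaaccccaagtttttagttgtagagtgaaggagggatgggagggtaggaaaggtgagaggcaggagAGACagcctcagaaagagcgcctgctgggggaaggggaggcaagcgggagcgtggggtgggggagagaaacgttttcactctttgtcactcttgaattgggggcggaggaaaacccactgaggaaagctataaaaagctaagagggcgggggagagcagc
GTCT was found 2 times in the Wif1 window, 102 and 205 bases before the start, and 1 time in the Dkk2 window, 160 bases before it, counting the first base of each match on either strand. Frzb, which was not called, had 4 matches in its window, and Sfrp2 and Dkk1 had 1 each. At 4 letters this motif is common. At least 1 match was held by 82.9% of the 32851 promoter windows of the same length in the table, and at least 2 matches by 54.9%. The GC-rich SMAD motif GGCGCC, which is its own reverse complement, was in none of the 5 members' windows and in 9.59% of all windows. The TCF/LEF core CTTTGA, on either strand, was in the windows of Dkk1, with 2 matches, and Frzb, with 1. It was in 13.8% of all windows, and 2 or more matches were in 1.37%. GC content was 62.8% in the Wif1 window and 55.6% in that of Dkk2, against a median of 52.4% over all windows. It was 64.4% for Frzb and 63.6% for Sfrp2, both uncalled and above Wif1, and 60.8% for Dkk1. The value of Wif1 was reached by 21.7% of all windows.

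Wif1, which encodes a secreted protein that binds Wnt ligands through its own WIF domain, had the largest change of the tested members. It had 587, 1233 and 864 counts in the BMP-2 libraries, and 13, 12 and 33 in the controls. The normalised levels were 18.3, 50.7 and 36.7 CPM with BMP-2, against 0.647, 0.601 and 1.23 CPM in the controls. Every BMP-2 library was far above every control, but the BMP-2 libraries also differed among themselves by 2.78 times, lowest in replicate 1. The means were 35.2 ± 16.3 CPM with BMP-2 and 0.827 ± 0.353 CPM in controls (SD, n = 3 each). Wif1 rose by 5.36 on the log2 scale (SE 0.483), 41.1-fold with a 95% interval from 18.8 to 90.1 (adjusted p = 0.00966, edgeR). By log2 change, counted from the largest rise, Wif1 ranked 15 among the 17006 tested genes. Without control replicate 1 or control replicate 2 the change was 5.21 or 5.18 and was no longer called (adjusted p = 0.0746 and 0.0541, edgeR), and it was called without each of the other libraries, at 5.34 (adjusted p = 0.0419) without the unnumbered one. The gene, ENSMUSG00000020218, lies on chromosome 10 from 120869865 to 120936555 (GRCm39, whole gene span, plus strand).

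The BMP target genes that were read as a check had the same lowest treated library. Id1 had 60.6, 115 and 99.5 CPM in the BMP-2 libraries, against 26.9, 21.0 and 28.8 CPM in the controls. Nog, which encodes the BMP antagonist noggin and rose by 3.64 on the log2 scale, had 9.92, 18.0 and 22.4 CPM with BMP-2, against 0.995, 1.45 and 1.53 CPM in controls. Wif1, Id1 and Nog were thus each lowest in BMP-2 replicate 1 among the treated libraries, at levels still above all controls. The highest library was BMP-2 replicate 2 for Wif1 and Id1 and the unnumbered one for Nog. With so few libraries a shared lowest one can arise by chance, and a link between these genes was not tested.

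Notum, the gene of a secreted carboxylesterase that strips the lipid from Wnt proteins, rose at a much lower level. It had 90, 87 and 87 counts in the BMP-2 libraries, and 19, 11 and 22 counts in the controls. In CPM this was 2.80, 3.58 and 3.69 with BMP-2, against 0.946, 0.551 and 0.823 in controls. The groups did not overlap, and the BMP-2 libraries were closer to each other than for Wif1, with a highest value 1.32 times the lowest. Its rise was 2.11 on the log2 scale (SE 0.317), 4.30-fold with a 95% interval from 2.60 to 7.12 (adjusted p = 0.0307, edgeR). Notum (ENSMUSG00000042988) lies on chromosome 11 from 120544614 to 120552001 on the minus strand (GRCm39), where the row of the antisense gene Notumos overlaps it by 2019 bases. Notumos had 8 counts in the BMP-2 libraries and 3 in the controls together, 3.48% of the count of Notum. The overlap is of whole gene spans, and without a stranded count reads from any shared exon could not be told apart. The Notum call did not survive leaving out any 1 of the 6 libraries (adjusted p from 0.0505 to 0.121, edgeR), with log2 changes from 1.92 to 2.26. Without the unnumbered library the change was 2.03 (adjusted p = 0.106).

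Of the Dickkopf genes, Dkk3 was the 1 called. Dkk3, a divergent member of the family whose part in Wnt signalling is less settled than that of Dkk1, rose by a small but even amount. Its levels were 49.2, 53.3 and 50.1 CPM in the BMP-2 libraries, against 30.2, 33.4 and 28.7 CPM in the controls. The groups did not overlap, and the SD was 4.23% of the mean with BMP-2 and 7.92% in controls. On the log2 scale Dkk3 rose by 0.73 (SE 0.104), 1.65-fold with a 95% interval from 1.40 to 1.95 (adjusted p = 0.0256, edgeR). As for Notum, no fit that left out 1 of the 6 libraries called Dkk3 (adjusted p from 0.0583 to 0.0881), although its log2 change stayed between 0.69 and 0.79, and at 0.74 (adjusted p = 0.0881) without the unnumbered library. It is ENSMUSG00000030772 and lies on chromosome 7 from 111715224 to 111758264 on the minus strand (GRCm39).

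Dkk2, which binds LRP co-receptors and can inhibit or weakly activate the pathway depending on context, was not called. It had 28.3, 14.1 and 18.2 CPM in the BMP-2 libraries, against 29.4, 23.0 and 21.4 CPM in the controls. BMP-2 replicate 1 lay within the range of the controls and the other 2 treated libraries below it. Its log2 change was -0.28, with a 95% interval from -0.87 to 0.30 (adjusted p = 0.884, edgeR), so a fall to 0.549 times the control level and a rise to 1.23 times are both inside the interval. Dkk2, ENSMUSG00000028031, spans 131791053 to 131886065 on the plus strand of chromosome 3 (GRCm39).

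Dkk1, the best-known LRP-binding Wnt antagonist and itself a Wnt target gene, was close to the limit of detection. It had 8, 9 and 18 counts in the BMP-2 libraries, and 1, 0 and 0 counts in the controls. In CPM this was 0.249, 0.370 and 0.764 with BMP-2, against 0.0498, 0 and 0 in controls, where 0 counts allow up to 0.150 CPM in control replicate 2 and 0.112 CPM in control replicate 3. The summed counts were 35 with BMP-2 and 1 in controls, a ratio of 29.2 with an exact 95% interval from 4.91 to 1186 that covers counting error only. Dkk4 had 0 counts in all 6 libraries, which allows up to 0.0933 to 0.127 CPM in the BMP-2 libraries and 0.112 to 0.150 CPM in the controls (3 counts of each library). Dkk1 (ENSMUSG00000024868) spans 30523263 to 30527065 on the minus strand of chromosome 19, and Dkk4 (ENSMUSG00000031535) spans 23114059 to 23117563 on the plus strand of chromosome 8 (GRCm39).

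The secreted frizzled-related genes, whose proteins carry a frizzled-like cysteine-rich domain, held most of the members' transcripts and none was called. Sfrp2 was the nearest. Its levels were 136, 124 and 167 CPM in the BMP-2 libraries, against 91.0, 55.2 and 87.0 CPM in the controls. Every BMP-2 library was above every control. The log2 change was 0.87 (SE 0.199, 95% interval from 0.42 to 1.33), or 1.83-fold, with an unadjusted p of 0.00227 and an adjusted p of 0.10 in edgeR. DESeq2, which called 3.01% of all tested genes higher, also called Sfrp2 (adjusted p = 0.00122). The row of Gm26771 on the other strand overlaps the end of Sfrp2 by 464 bases and held 0.277% as many counts. Sfrp2 itself (ENSMUSG00000027996) spans 83673628 to 83681623 on the plus strand of chromosome 3 (GRCm39).

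Sfrp1, a ligand-binding relative expressed in many embryonic tissues, had no call either. It had 235, 205 and 155 CPM in the BMP-2 libraries, against 267, 222 and 210 CPM in the controls. BMP-2 replicate 1 lay inside the control range and the other 2 treated libraries below it. Sfrp1 had a log2 change of -0.23 with a 95% interval from -0.61 to 0.15 (adjusted p = 0.813, edgeR). A fall below 0.654 times or a rise above 1.11 times the control level lies outside this interval. Sfrp1 is ENSMUSG00000031548, on chromosome 8 from 23901518 to 23939648 on the plus strand (GRCm39).

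Frzb, also known as secreted frizzled-related protein 3 and first known from cartilage, and Sfrp4 were both low and uneven between replicates. Frzb had 0.622, 1.65 and 3.27 CPM in the BMP-2 libraries, against 0.995, 0.300 and 0.561 CPM in the controls. BMP-2 replicate 1 lay within the control range, and the highest treated library was 5.25 times the lowest. For Frzb the log2 change was 1.56 (SE 0.659, 95% interval from 0.05 to 3.07, adjusted p = 0.469, edgeR), and 0.86 without the unnumbered library. Sfrp4 had 6.50, 2.67 and 2.55 CPM in the BMP-2 libraries, against 3.63, 4.61 and 7.67 CPM in the controls. BMP-2 replicate 1 was among the controls and the other BMP-2 libraries below them all. The log2 change was -0.44 (95% interval from -1.44 to 0.56, adjusted p = 0.905, edgeR). Frzb (ENSMUSG00000027004) spans 80242314 to 80277969 on the minus strand of chromosome 2 and Sfrp4 (ENSMUSG00000021319) 19807274 to 19817164 on the plus strand of chromosome 13 (GRCm39).

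**Figure D2:**
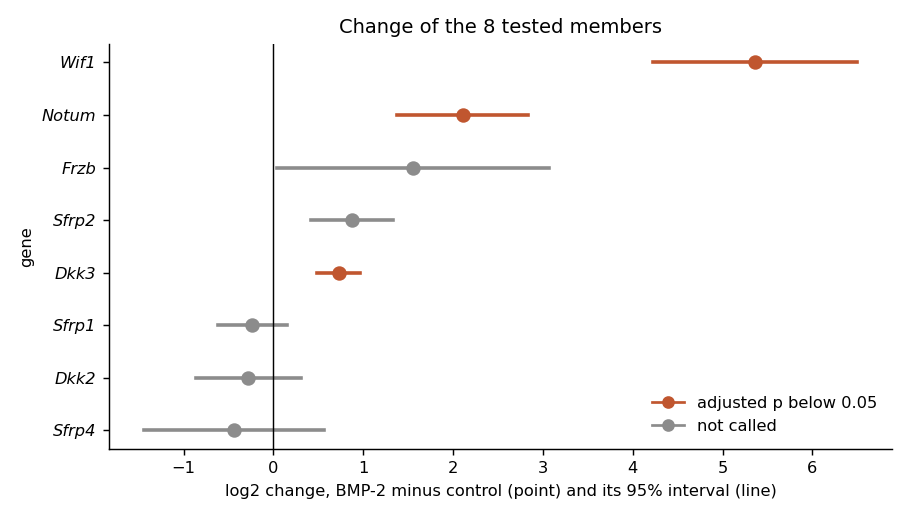
Log2 change of the 8 tested members, BMP-2 minus control, with the 95% interval of the edgeR fit (n = 3 libraries in each group); orange marks an adjusted p below 0.05. Wif1 at 5.36, Notum at 2.11 and Dkk3 at 0.73 were called, while the wider interval of Frzb and the interval of Sfrp2 also lie above 0 without a call after adjustment over all genes.

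Levels of different members were compared per length, as CPM divided by the exon length in kilobases that the deposited table lists. With BMP-2 the order by mean was Sfrp2 (66.2 ± 10.3 CPM per kilobase), Sfrp1 (41.0 ± 8.39), Wif1 (14.5 ± 6.71), Dkk3 (11.3 ± 0.476), Dkk2 (5.15 ± 1.86), Notum (1.37 ± 0.198), Sfrp4 (0.935 ± 0.538), Frzb (0.570 ± 0.412), Dkk1 (0.190 ± 0.111) and Dkk4 (0). In controls it was Sfrp1 (48.2 ± 6.24 CPM per kilobase), Sfrp2 (36.1 ± 9.10), Dkk3 (6.81 ± 0.540), Dkk2 (6.28 ± 1.09), Sfrp4 (1.27 ± 0.504), Wif1 (0.341 ± 0.145), Notum (0.315 ± 0.0824), Frzb (0.191 ± 0.108), Dkk1 (0.00684 ± 0.0118) and Dkk4 (0; all SD, n = 3). Neighbours whose libraries overlapped were Wif1 with Dkk3 and the run Notum, Sfrp4, Frzb and Dkk1 with BMP-2. In controls they were Dkk3 with Dkk2, Wif1 with Notum, Notum with Frzb, and Dkk1 with Dkk4. Sfrp1 and Sfrp2 changed places: the level of Sfrp1 per kilobase was 0.771, 0.735 and 0.412 times that of Sfrp2 in the BMP-2 libraries, against 1.31, 1.79 and 1.07 times in the controls.

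Summed over the 10 members, the level was 140, 139 and 144 CPM per kilobase in the BMP-2 libraries, against 114, 86.6 and 98.5 in the controls. Sfrp1 and Sfrp2 together made up 79.6, 72.0 and 76.2% of that sum with BMP-2, against 85.9, 82.7 and 85.1% in controls. Wif1 alone made up 5.36, 15.0 and 10.5% with BMP-2, against 0.235, 0.286 and 0.516% in controls. The 4 Dkk genes held 13.0, 11.2 and 11.2% with BMP-2, against 12.5, 15.3 and 12.0% in controls. Each library's sum was thus still mainly frizzled-related transcripts, and the share of Wif1 was larger in every BMP-2 library than in any control.

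**Figure D3:**
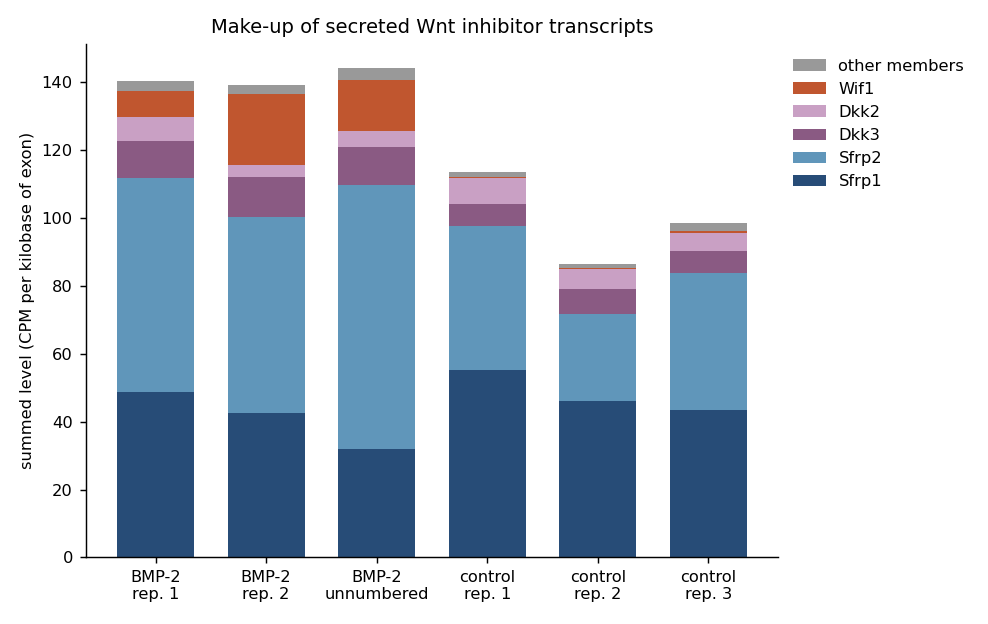
Summed level of the 10 members in each library (CPM per kilobase of exon, stacked bars from 0), BMP-2 libraries at left and controls at right; the grey part joins Notum, Dkk1, Dkk4, Sfrp4 and Frzb. The BMP-2 bars reach 139 to 144 and the control bars 86.6 to 114, and the orange Wif1 part is 5.36 to 15.0% of the BMP-2 bars.

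The other genes of the pathway mostly were not called. Of 65 other Wnt genes in 5 lists, 53 were tested, edgeR called 2 higher and 0 lower, with a median log2 change of 0.09. Wnt5a, a ligand mainly of the non-canonical branch, was the 1 gene of 12 tested Wnt ligands called by edgeR, and also by DESeq2 and limma-voom. It had 22.1, 37.1 and 24.9 CPM in the BMP-2 libraries, against 5.28, 3.35 and 5.57 CPM in the controls (log2 change 2.56, SE 0.265, adjusted p = 0.00966, edgeR). Rspo2, which encodes an R-spondin that enhances Wnt signals, was the 1 gene of 6 tested R-spondin and Wnt secretion genes called by edgeR. DESeq2 called Rspo2 and Wls, which encodes the carrier that brings Wnt proteins to the cell surface, and limma-voom called 0 of the 6. Rspo2 had 4.20, 4.32 and 5.98 CPM with BMP-2, against 1.54, 1.15 and 1.57 CPM in controls (log2 change 1.76, SE 0.278, adjusted p = 0.0355, edgeR). Wnt5a was not called without control replicate 1 (adjusted p = 0.0669) and was called without each of the other libraries, while Rspo2 was not called without any 1 of the 6 (adjusted p from 0.0546 to 0.150, edgeR).

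No gene was called by edgeR in the lists of other Wnt inhibitors, receptors and response genes. At an unadjusted p below 0.05 it found 0 of the 8 tested inhibitors, 5 of the 18 receptors, all higher, and 5 of the 9 response genes, 3 higher and 2 lower. Over all tested genes 6.47% were higher and 3.65% lower at that p. DESeq2 called 0 of the inhibitors, 4 of the receptors, all higher, and 1 response gene, Nkd2, lower. Limma-voom called none in these lists. The inhibitors with the highest mean CPM were Sostdc1, a secreted protein that binds LRP6 and BMP ligands, at 167 ± 12.1 CPM with BMP-2 and 164 ± 25.4 CPM in controls, and Shisa2, which holds back frizzled maturation, at 68.2 ± 6.22 CPM with BMP-2 and 69.2 ± 9.50 CPM in controls (SD, n = 3 each). The receptors with the highest mean CPM were Lrp5, a co-receptor, with a log2 change of 0.18, and Fzd7, a frizzled receptor, with a change of -0.02. Of 9 Wnt response genes, 4 had a positive and 5 a negative change, with a median of -0.14. By mean CPM the leading ones were Ccnd1, a cell cycle gene, at -0.14, and Nkd2, a feedback inhibitor inside the cell, at -0.61 (adjusted p = 0.957 and 0.103, edgeR).

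For each called member the 4 genes with the most similar profile were found among 13394 named genes with a mean of at least 1 CPM. Likeness was the root mean square difference of log2 CPM over the 6 libraries, each gene centred on its own mean. This measure includes the difference between the groups, which was known when the members were chosen. Nearest to Wif1 were Cxcl14, a chemokine gene (difference 0.32), Krt24, a keratin gene (0.34), and the homeobox genes Msx2 (0.41) and Dlx3 (0.48). Cxcl14 had 29.8, 93.3 and 73.9 CPM in the BMP-2 libraries, against a mean of 1.19 ± 0.163 CPM in controls (SD, n = 3), so both genes were highest in BMP-2 replicate 2. Nearest to Notum were Prss35 (0.14), Rdh12, a retinol dehydrogenase gene (0.18), Fbxo2 (0.21) and Anxa9 (0.22), with log2 changes from 1.88 to 2.14, the first 3 called and Anxa9 not (adjusted p = 0.0558, edgeR). Nearest to Dkk3 were Angptl7 (0.09), Zfp365 (0.09), the carbonic anhydrase gene Car13 (0.096) and the homeobox gene Shox2 (0.10). Their log2 changes lay between 0.62 and 0.66, and none was called (adjusted p from 0.0621 to 0.208).

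Markers of other cell types also differed between the libraries. All 13 skeletal muscle markers in the table had a positive log2 change. Pax7 was the 1 called by edgeR and limma-voom, 11 had an unadjusted p below 0.05 in edgeR, and DESeq2 called 6, all higher. Their summed level was 923, 213 and 994 CPM in the BMP-2 libraries, against 11.1, 6.81 and 110 CPM in control replicates 1, 2 and 3, and Pax7, Myf5, Myog, Actc1 and Ckm were at 0 counts in control replicate 1. Of 12 tested cartilage markers edgeR called 4 higher, DESeq2 8 and limma-voom 2, and the 15 in the table summed to 352, 498 and 574 CPM with BMP-2, against 232, 251 and 211 CPM in controls, with Matn1 at 0 in every library. The 9 bone markers summed to 130, 483 and 398 CPM with BMP-2, against 75.3, 310 and 289 CPM in controls, and Spp1 was the largest part in each library, at 88.4, 410 and 250 CPM with BMP-2, against 37.5, 268 and 257 CPM in controls. Of 6 tested bone markers edgeR called 1, Sp7, an osteoblast transcription factor gene, at 2.27, 6.75 and 15.4 CPM with BMP-2, against 0, 0.0501 and 0 CPM in controls. DESeq2 called Sp7 and Alpl higher and limma-voom called 0. Ibsp was at 0 counts in every control, and at 0.0311, 0.123 and 50.7 CPM in the BMP-2 libraries, so nearly all of it was in the unnumbered library. Sp7 and Bglap were at 0 counts in control replicates 1 and 3, and Ifitm5 in BMP-2 replicate 1. Of the 6 tested bone markers 5 had a positive log2 change and 1 a negative change, Phex (-1.36, adjusted p = 0.199, edgeR). Among the BMP-2 libraries the order of Wif1 was that of the bone sum and not that of the muscle or cartilage sum. Spp1 had this order too but was not called (log2 change 0.41, adjusted p = 0.972, edgeR). Sp7 and Alpl, the bone markers called by DESeq2, did not have it. Of the 4 cartilage markers called by edgeR, Acan, Matn4 and Col9a2 had the order of Wif1 and Col2a1 did not. The order of Frzb was that of the cartilage sum and of Nog. In the controls Wif1 did not have the order of the bone sum, nor Frzb that of the cartilage sum. Orders of 3 libraries often match by chance, and a link of the members to these cell types was not tested.

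Gland epithelium markers summed to 5551, 5931 and 4805 CPM in the BMP-2 libraries, against 8613, 6377 and 6543 CPM in controls. Of the 11, edgeR called 0, with 2 lower at an unadjusted p below 0.05, DESeq2 called 1 lower, the secretory gene Bpifa2, and limma-voom called 0. Over all tested genes these shares were 3.65% lower at that p in edgeR and 0.941% called lower by DESeq2. Bpifa2 held 896, 519 and 1073 CPM of the sums with BMP-2, against 3376, 1972 and 1522 CPM in controls. Without Bpifa2 the sums of the groups overlap. Of the 11 markers, 10 had a negative log2 change. Mesenchyme markers summed to 6160 to 9613 CPM with BMP-2 and 7331 to 8650 CPM in controls, and edgeR called 1 of 11 higher, Prrx2, while DESeq2 called 3 higher and limma-voom 1. The part of these cell types in the changes of the members was not tested. No marker of endothelium, leukocytes or neurons and glia was called by edgeR, DESeq2 or limma-voom, of 5, 5 and 4 tested (2 of the last lower at an unadjusted p below 0.05 in edgeR, 0 of the others).

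**Figure D4:**
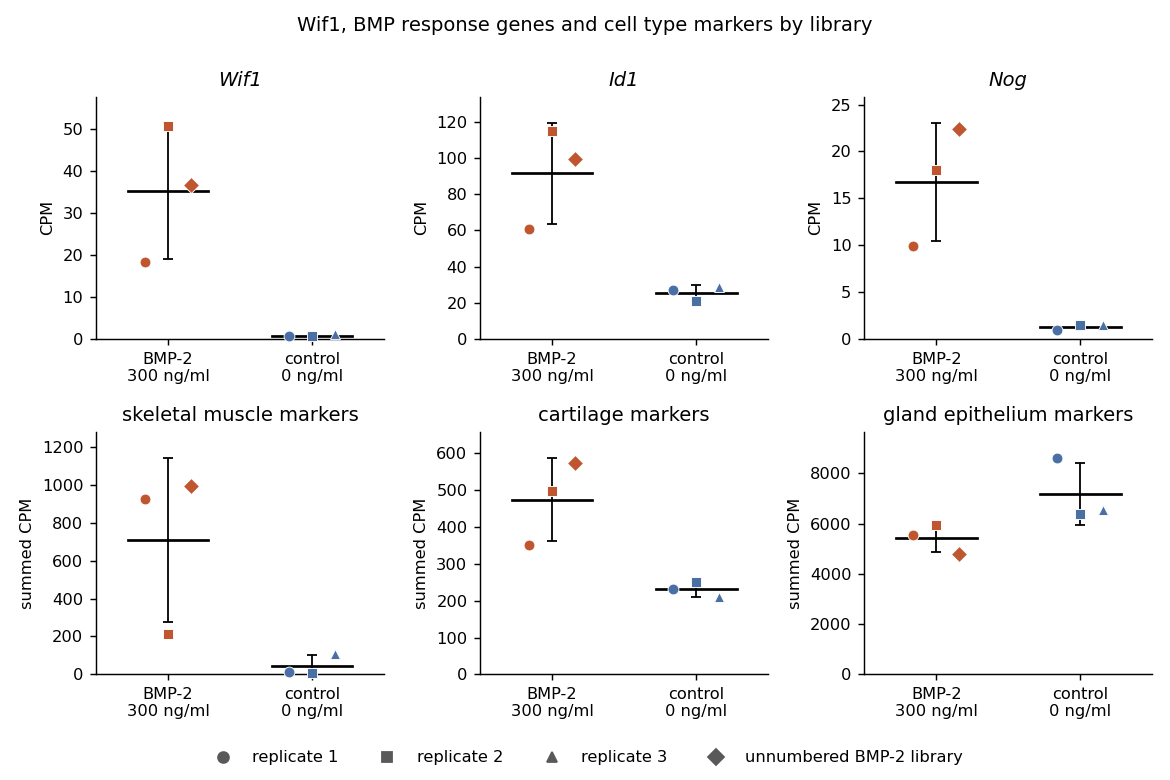
Wif1, the BMP target genes Id1 and Nog (CPM) and summed markers of skeletal muscle, cartilage and gland epithelium (summed CPM) in each library, on linear axes from 0; the line is the mean and the bar the SD of 3 libraries. Wif1, Id1 and Nog are lowest among treated libraries in BMP-2 replicate 1, while the muscle sum is lowest in BMP-2 replicate 2, at 213 CPM against 923 and 994 CPM. The gland epithelium sums are separated between the groups through Bpifa2, without which they overlap.

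Over the settings plotted, Wif1 kept a log2 change between 5.01 and 5.82, and limma-voom put it at an adjusted p of 0.0503, next to the threshold. Sfrp2 was called with no filter on low counts (adjusted p = 0.0303) and by DESeq2, and without the unnumbered library its log2 change was 0.74 with an adjusted p of 0.276 in edgeR. Taking out a library lowers the number of libraries as well as changing their spread.

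**Figure D5:**
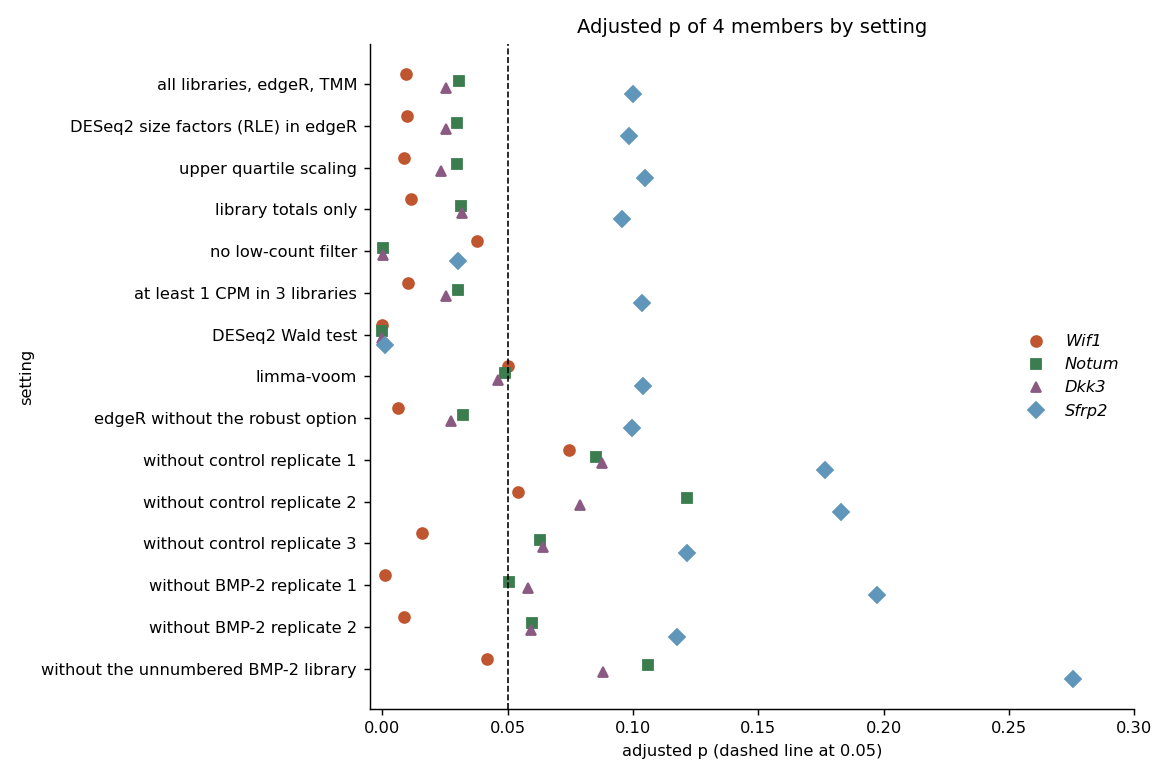
Adjusted p of Wif1, Notum, Dkk3 and Sfrp2 under each setting drawn (linear axis, dashed line at the threshold of 0.05); each row below the first changes 1 choice of the edgeR fit of all 6 libraries. Leaving out a library puts Notum and Dkk3 to the right of the line in all 6 cases and Wif1 in 2 of them, and Sfrp2 is left of it with no low-count filter and with DESeq2; fits of the 4 libraries numbered 1 and 2 are not drawn.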

How the data were processed

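The authors deposited raw read counts per gene, whole and not normalized, with gene coordinates and exon lengths. Cutadapt 2.9, HISAT2 2.2.0, featureCounts and build GRCm39 are named, per the submitters' processing notes. Per the labels' protocols, the library kit was directional. The strand setting and the handling of multi-mapping reads are not given in the sources used here.

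From the counts, edgeR 4.0.16 (R 4.3.3) was run on 3 BMP-2 against 3 control libraries: default expression filter, TMM factors, robust quasi-likelihood fit with 4 residual degrees of freedom, and Benjamini-Hochberg adjustment over 17006 genes at 0.05. The common biological coefficient of variation was 0.214. CPM are counts scaled to the TMM-adjusted library size, and log2 CPM used a prior count of 2. Intervals of log2 changes use the fit's SE and degrees of freedom. Floors are 3 counts, and floors and count intervals cover counting error only. Replicate pairs differed by more than sampling noise (chi-square divided by its degrees of freedom, 12.7 to 38.2). The fits were tested on simulated data. Alternatives covered scaling, filter, test (DESeq2 1.42.0, limma-voom 3.58.1), robust option, a replicate block and each library left out.

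The members and lists were chosen with earlier results of these data known. Named genes were all members, the BMP check genes, called genes of each other Wnt list (or its 2 most abundant), and the 4 nearest profiles of each called member. Nog, Prrx2, Pax7, Bpifa2, Wls, the other markers named and the genes under other observations were chosen after their values were seen. Acta1 and Tubb3, listed as cell type markers, were not analysed here. Of the table's 6 library columns, 5 matched the description of 1 sample each, and 1 BMP-2 sample matched no column.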

Additional observations from a re-analysis of the deposited data

How the results depend on the processing

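Wif1, Notum and Dkk3 were called together under the 3 other scalings, both other filters, DESeq2 and edgeR without its robust option. They were also called together with the replicate block, which was fitted on only 4 libraries. With no low-count filter Dkk1 and Sfrp2 were called too, 5 members in all, when 1.37% of 31643 genes were called higher. Limma-voom called Notum and Dkk3 but not Wif1 (log2 change 5.26, adjusted p = 0.0503). Fits without 1 library called 0 or 1 members, 20 to 151 genes in all and 0 to 2 other Wnt genes. In them the log2 change lay between 5.01 and 5.82 for Wif1, 1.92 and 2.26 for Notum, and 0.69 and 0.79 for Dkk3. Other counts moved as follows. All genes called, 155 in the reported fit, were 552 with no filter, 672 with DESeq2 and 78 with limma-voom. Other Wnt genes called, 2 in the reported fit, were 7, 8 and 1 in these. The cause was not tested.

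Columns of both groups could be matched to a shared replicate number for 2 pairs only. The titles also name a BMP-2 replicate 3, which matched no column. Nothing in the labels says that a number marks a shared litter or day. Deviations from the group mean correlated by 0.43 for the libraries numbered 1 and by 0.14 for those numbered 2, across genes. Both libraries numbered 2 correlated more with a library of another number or none, BMP-2 replicate 2 with control replicate 3 (0.22) and the unnumbered library with control replicate 2 (0.21). On these 4 libraries a replicate block called 540 genes, 4 members (Sfrp2 added) and 4 other Wnt genes. It called 2.66% of its tested genes higher, and Notum was next to the threshold (adjusted p = 0.04997, edgeR). The same 4 libraries without the block, an alternative chosen after seeing the data, gave 42 genes, 1 member (Wif1) and 1 other Wnt gene. Notum and Dkk3 had log2 changes of 2.09 and 0.70 there and were not called (adjusted p = 0.154 and 0.141, edgeR). Sfrp4 turned to a log2 change of 0.062 with the replicate block and 0.17 without it. Counts of 0 to 33 limit Dkk1 and the control level of Wif1.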

Other observations

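A few other Wnt genes, chosen after their values were seen, had values worth a closer look. Sost, which encodes the LRP-binding Wnt antagonist sclerostin of bone cells, had 2, 11 and 10 counts in the BMP-2 libraries and 0 counts in all 3 controls. The summed BMP-2 count of 23 was 6.40 times a floor of 3 counts over the control group, after scaling. This ratio leaves out the counting error of the 23 and the spread between libraries, so it is not a lower bound. BMP-2 replicate 1 alone, at 0.0622 CPM, was below what 0 counts allow in each control library (0.112 to 0.150 CPM). Too few counts were present for the test. Lgr5, an R-spondin receptor gene, had 11.5, 13.2 and 10.6 CPM with BMP-2, against 4.73, 4.21 and 6.92 CPM in controls. It was not called by edgeR (log2 change 1.15, adjusted p = 0.0647). Fzd9, a frizzled receptor gene, had 9.20, 10.4 and 17.0 CPM with BMP-2, against 5.47, 6.06 and 4.82 CPM in controls (log2 change 1.16, adjusted p = 0.0928, edgeR). DESeq2 called both Lgr5 and Fzd9 higher, and limma-voom called neither. Axin2, a widely used readout of canonical Wnt signalling, had 20.7, 12.2 and 14.4 CPM with BMP-2, against 21.3, 14.0 and 23.0 CPM in controls, with overlapping groups (log2 change -0.30, adjusted p = 0.861, edgeR).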
